A study of Mus musculus with 6 samples.

Results

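The 4 arrays compared here hold lung RNA of mice with 2 doses of 1 transgene: 2 arrays of animals homozygous for it (labelled tg/tg) and 2 of animals hemizygous for it (tg/wt). The transgene carries T-bet under human CD2 control (hCD2-T-bet), which is meant to drive it in T cells, on a C57BL/6 background. They were chosen by genotype label from the 6 arrays of the series, whose other 2 hold wild-type (WT) C57BL/6 lung without the transgene. All 6 samples are total RNA of lung, labelled with the single dye Cy3 and hybridised to 44K Agilent mouse arrays, and the study measured them in connection with pulmonary alveolar proteinosis. The labels used here give no age, sex or infection status and do not say whether the 2 arrays of a genotype come from separate animals, so the p-values may measure technical spread only. The precision of every value is limited by having 2 arrays a group.

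T-bet is the T-box transcription factor that directs helper T cells to the Th1 fate, and interferon-gamma (Ifng) is its best known target. Interferon-gamma acts on many cell types: it induces the chemokines that draw in more Th1 cells, the machinery of antigen presentation, and a microbicidal state in macrophages. In the alveolus, macrophages that depend on GM-CSF and the nuclear receptor PPAR-gamma clear used surfactant, and pulmonary alveolar proteinosis is the build-up of surfactant when that clearance fails.

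The array layout limits the comparison: both tg/wt arrays lie on 1 slide with a scan of its own, while both WT and both tg/tg arrays lie on the other, so slide, scan and genotype cannot be told apart in tg/tg against tg/wt. The comparison of tg/tg with WT lies within 1 slide and is given beside each result that turns on it. A level is log2 of the processed signal minus the array's 75th percentile, which was 861 to 1282 intensity units. Between 62.0% and 66.8% of probes were well above background on each array. Across all genes, replicate arrays correlated at 0.997 to 0.998 and the tg/wt arrays with the tg/tg arrays at 0.930. Replicates differed at the median gene by 0.04 (WT), 0.06 (tg/wt) and 0.07 (tg/tg) on the log2 scale. Defining lung markers were present: the surfactant gene Sftpc was saturated on every array, and Sftpa1, Sftpb, Sftpd, Scgb1a1 and Ager were well above background on every array. In bulk lung, fewer cells of a type and less RNA per cell cannot be told apart.

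Tbx21, which encodes T-bet, rose with each copy of the transgene. Its level was -0.81 and -0.81 on the WT arrays, 1.21 and 1.25 on the tg/wt arrays and 3.13 and 3.15 on the tg/tg arrays. The 3 genotypes did not overlap and stood in the order of the transgene dose. The second copy added 1.91 ± 0.0344 (log2 difference ± standard error from limma, 3.77-fold, adjusted p = 1.89e-06), and the first had added 2.04. The 2 steps did not pass the test of their difference (-0.13, 95% interval -0.28 to 0.03, adjusted p = 0.123). A single probe measured the gene, and the files do not say whether it reads the transgene, the mouse's own gene or both.

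Across the lung, the second copy went with differences in most genes measured. Of 12774 genes tested, 9625 (75.3%) passed the limma test in tg/tg against tg/wt: 4226 (33.1%) were higher and 5399 (42.3%) lower at a Benjamini-Hochberg adjusted p under 0.05. Differences of at least 2-fold were found for 1242 higher (9.72%) and 1456 lower genes (11.4%), and of more than 8-fold for 201 and 134. Tested against a log2 difference of 0.5 instead of 0 (limma's treat), 1763 were higher and 2276 lower. The median gene differed by -0.07 and the quartiles were -0.50 and 0.32 (log2 difference, tg/tg minus tg/wt). The counts of list members below stand against these shares as description only. The lists were chosen with earlier results of these data known, and no set test was run on them. Steps and list medians are log2 differences. Between the first step (tg/wt minus WT) and the second (tg/tg minus tg/wt), which share the tg/wt arrays, the step difference passed the test in 7888 genes (61.8%), upward in 3378 (26.4%) and downward in 4510 (35.3%). It was at least 2-fold upward in 1115 (8.73%) and downward in 1511 (11.8%). The first step alone called 3668 genes (28.7%), 1998 higher (15.6%) and 1670 lower (13.1%), of which 155 were at least 2-fold higher (1.21%) and 95 at least 2-fold lower (0.744%). Within the slide that holds both groups, tg/tg against WT called 9633 genes (75.4%), with 34.2% higher and 41.2% lower and at least 2-fold differences in 11% and 12%. The tg/tg and tg/wt arrays did not overlap in 11233 genes (87.9%).

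**Figure D1:**
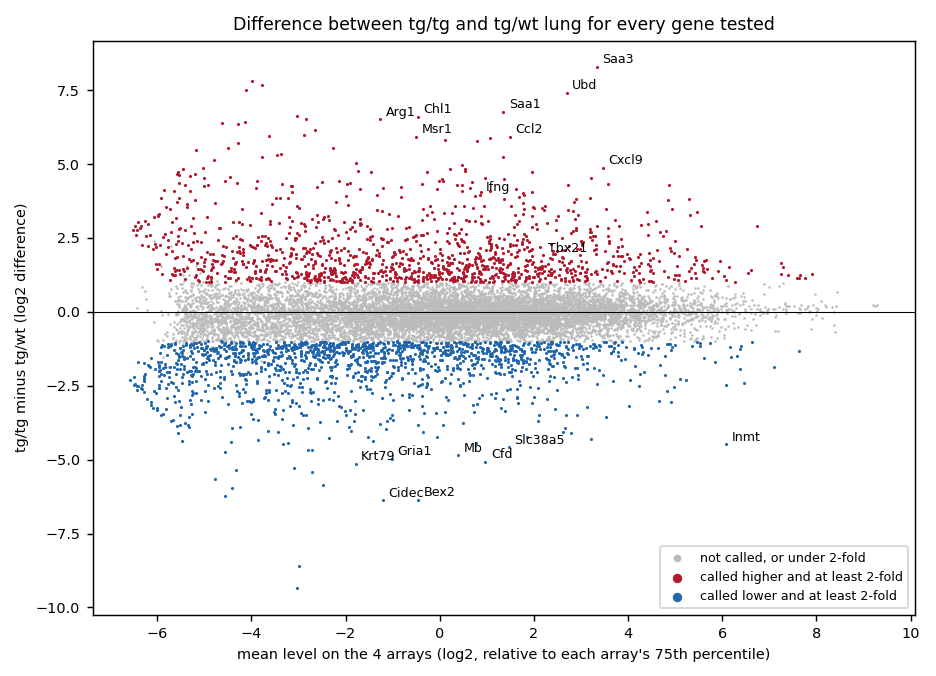
Each point is 1 of the 12774 genes tested, at its mean level on the 4 tg/wt and tg/tg arrays (x axis, log2) and its difference between tg/tg and tg/wt (y axis, log2). Coloured points passed the limma test and differed at least 2-fold; 1242 lie above and 1456 below the line of no difference, and the points at the far left, above and below the line, are close to background in 1 group.

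The largest rises included genes of acute inflammation and of activated macrophages. Saa3, an acute-phase serum amyloid that macrophages make, stood at -1.85 and -1.92 on the WT arrays, -0.76 and -0.85 on the tg/wt arrays and 7.51 and 7.46 on the tg/tg arrays. Both tg/tg arrays lay far above all other arrays, and tg/tg exceeded tg/wt 313-fold (8.29 ± 0.0527, adjusted p = 7.6e-07). Ubd, an interferon-inducible ubiquitin-like protein, rose 171-fold and the serum amyloid gene Saa1 109-fold on the probe used, whose log2 difference of 6.77 compares with 4.43 on its other probe. Arg1, the arginase of alternatively activated macrophages, stood at -4.78 and -4.64 on the WT arrays, -4.46 and -4.58 on the tg/wt arrays and 1.96 and 2.02 on the tg/tg arrays. The WT and tg/wt arrays were all low, and tg/tg was 91.1-fold above tg/wt. Ccl2, the main monocyte chemoattractant, rose 60.8-fold, and Cxcl1, a neutrophil chemoattractant, 46.7-fold. The scavenger receptor gene Msr1 rose 60.5-fold, and the C-type lectin receptors Clec4e, a sensor of damaged cells and mycobacterial glycolipid, and Clec4d rose 58.6- and 54.6-fold. Chl1, a neural cell adhesion molecule (96.5-fold), Ly6f (56.4-fold) and Slc26a4, the anion exchanger pendrin (38.0-fold), complete the 12 largest rises; for Chl1 the probes ran from 6.59 to 7.57 on the log2 scale. Of genes not well above background on either tg/wt array, the largest bounds were at least 63.5-fold for the acute-phase gene Orm2, at least 62.4-fold for the fatty acid receptor Gpr84, at least 59.5-fold for the macrophage elastase Mmp12, at least 51.0-fold for the neutrophil chemoattractant Cxcl5 and at least 46.6-fold for neuropeptide Y.

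The largest falls included genes of lipid storage, fibroblasts and muscle. Cidec, a lipid droplet protein of fat cells and alveolar macrophages, stood at 2.06 and 2.04 on the WT arrays, 1.95 and 2.03 on the tg/wt arrays and -4.41 and -4.37 on the tg/tg arrays. The first step did not pass the test (-0.06, adjusted p = 0.366), and tg/tg was 83.3-fold below tg/wt. Inmt, a methyltransferase strongly expressed by lung fibroblasts, stood at 8.34 and 8.30 on the WT arrays, 8.26 and 8.39 on the tg/wt arrays and 3.76 and 3.93 on the tg/tg arrays and was 22.4-fold below tg/wt in tg/tg. The adipokine and complement factor gene Cfd fell 33.6-fold, myoglobin (Mb) 28.9-fold, the keratin gene Krt79 35.4-fold and Bex2 81.8-fold. Gria1, a glutamate receptor subunit, fell 31.4-fold, the amino acid transporter Slc38a5 23.9-fold, the matrix gene Tnxb 21.5-fold, the retinol-esterifying enzyme Lrat 20.6-fold and the collagen-processing enhancer Pcolce2 19.5-fold. Pcdha6 fell 19.2-fold on 1 probe, while its other probe gave a log2 difference of -0.31. Probes also ranged from -4.97 to -3.87 for Gria1, from -4.43 to -3.42 for Tnxb and from -4.37 to -3.23 for Lrat. Of genes not well above background on either tg/tg array, Slc7a10, an amino acid transporter of fat cells, was at least 134-fold lower and Fabp1, a fatty acid binding protein, at least 107-fold lower. The corresponding bounds were 42.5-fold for Car3, a carbonic anhydrase of fat and muscle, 19.5-fold for Tecrl and 15.9-fold for the drug transporter Slc47a1.

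**Figure D2:**
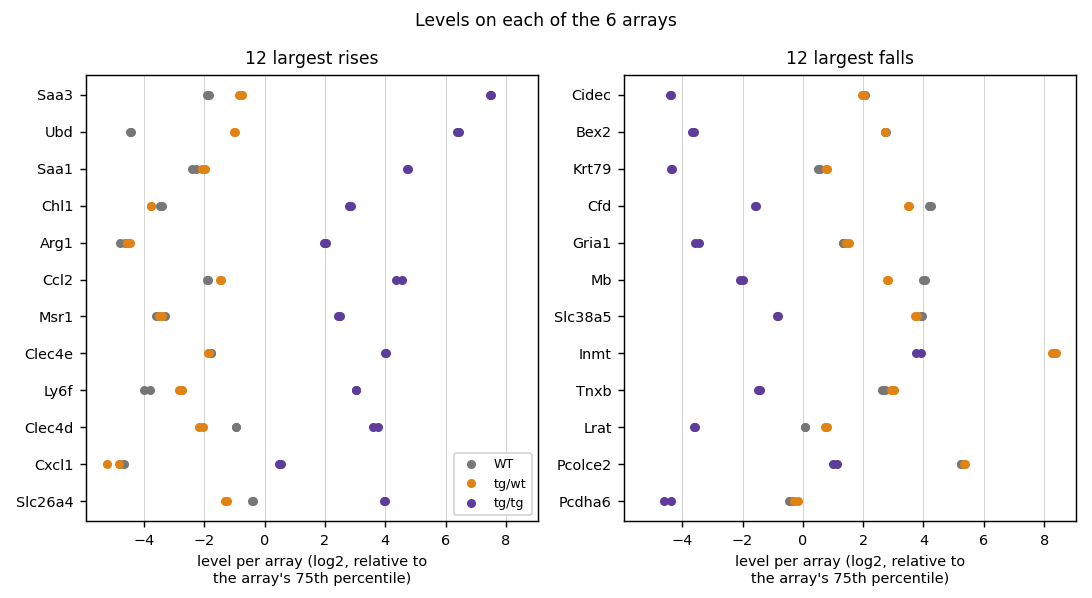
Level per array (x axis, log2 relative to the array's 75th percentile) of the 12 steepest rises and 12 steepest falls between tg/wt and tg/tg among genes measured on all 4 arrays; each genotype has 2 points, which often coincide. The genes were picked among those whose tg/tg and tg/wt arrays do not overlap (87.9% of all genes tested). The tg/tg points therefore stand apart from the tg/wt points by selection. The WT points lie closer to tg/wt than to tg/tg in each of the 24 genes.

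The interferon-gamma response rose as a whole. All 28 tested members passed the test upward (33.1% of all genes did), 26 of them at least 2-fold, with a median difference of 2.97 (2.87 with genes below background at their bound) against -0.07 for all genes. Ifng itself stood at -3.66 and -3.80 on the WT arrays, -1.14 and -1.10 on the tg/wt arrays and 2.79 and 2.87 on the tg/tg arrays. The 3 genotypes were in order without overlap, with a first step of 2.61 and a second of 3.95 ± 0.0625 (15.5-fold, adjusted p = 1.42e-06). Cxcl9, a chemokine that attracts CXCR3-bearing Th1 cells and depends strongly on interferon-gamma, stood at -3.50 and -3.37 on the WT arrays, 1.04 and 1.02 on the tg/wt arrays and 5.91 and 5.90 on the tg/tg arrays. Its steps were 4.47 and 4.88, and their difference of 0.41 passed the test (adjusted p = 0.0145) but not without tg/wt 1 (adjusted p = 0.0643) or tg/wt 2 (adjusted p = 0.0773). For Cxcl10, which binds the same receptor, the steps were 2.70 and 4.53, and for Ubd the steps were 3.45 and 7.42. Nos2, the inducible nitric oxide synthase of activated macrophages, was at least 7.12-fold above tg/wt in tg/tg. Irf1, a transcription factor that interferon-gamma induces, rose 2.99-fold. The step difference was above 0 and passed the test in all 28 members (26.4% of all genes), with median steps of 0.70 and 2.97.

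Type I interferon response genes rose at the second step. All 17 tested members rose at the second step (median 2.30), while the first step called 8 higher and 1 lower (median 0.16). Oas3, an enzyme that makes the activator of RNase L, stood at -4.43 and -4.43 on the WT arrays, -4.39 and -4.18 on the tg/wt arrays and 0.78 and 0.69 on the tg/tg arrays. The WT and tg/wt arrays lay close together at a low level, and tg/tg was 32.5-fold above tg/wt (step difference 4.88, adjusted p = 2.49e-05; log2 differences of 3.66 to 5.02 over its probes). Zbp1, a sensor of viral nucleic acid, rose 11.2-fold, the ubiquitin-like modifier Isg15 8.56-fold and Irf7, the factor that amplifies type I interferon, 8.39-fold. For Isg15 the first step was 0.03.

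Promoter sequences of 6 members are printed to show matches to elements known for these responses, taken from RefSeq promoters on GRCm38.p6 and cut to the 250 bases before the start site. Searched on both strands were the interferon-gamma activated site GAS (TTCNNNGAA), the interferon-stimulated response element ISRE (a pair of GAAA runs with any 2 bases between them), a T-box element (TCACACC), and for the clock genes a D-box (TTATGTAA) and an E-box (CACGTG). Matches of 1 motif may overlap each other. The members were chosen because they hold an ISRE, GAS, E-box or D-box match, and capitals mark those matches only. Cxcl10 (chr5:92348890-92349139, minus strand) has 1 ISRE match, 203 bases from the start site. Igtp, an interferon-gamma inducible GTPase (7.54-fold higher; chr11:58199306-58199555, plus strand), has a GAS and an ISRE match in succession, ending 24 bases from it. Isg15 (chr4:156200819-156201068, minus strand) has 3 ISRE matches that overlap their neighbours, and Oas3 (chr5:120777660-120777909, minus strand) has 1. Isg15 and Oas3 also hold 1 T-box match each, left in lower case.
Cxcl10: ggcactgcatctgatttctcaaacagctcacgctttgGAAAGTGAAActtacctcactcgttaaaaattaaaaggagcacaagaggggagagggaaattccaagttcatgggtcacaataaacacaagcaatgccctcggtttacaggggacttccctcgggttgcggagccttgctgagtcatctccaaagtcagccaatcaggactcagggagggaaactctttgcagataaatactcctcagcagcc
Igtp: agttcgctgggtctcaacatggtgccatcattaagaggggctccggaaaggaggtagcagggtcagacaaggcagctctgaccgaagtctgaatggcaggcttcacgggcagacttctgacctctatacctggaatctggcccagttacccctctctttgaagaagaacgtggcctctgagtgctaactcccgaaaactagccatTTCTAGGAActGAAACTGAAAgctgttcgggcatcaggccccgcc
Isg15: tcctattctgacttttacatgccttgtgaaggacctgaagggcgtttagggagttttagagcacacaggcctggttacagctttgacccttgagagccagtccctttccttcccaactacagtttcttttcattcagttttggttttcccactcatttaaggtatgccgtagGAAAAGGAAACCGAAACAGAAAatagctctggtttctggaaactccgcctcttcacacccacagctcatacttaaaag
Oas3: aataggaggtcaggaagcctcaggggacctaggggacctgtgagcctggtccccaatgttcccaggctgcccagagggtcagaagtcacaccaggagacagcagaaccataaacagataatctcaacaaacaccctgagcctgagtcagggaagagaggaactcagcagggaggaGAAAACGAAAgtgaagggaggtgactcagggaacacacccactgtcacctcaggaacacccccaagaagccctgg

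Over all 32851 promoters, 7.02% held a GAS and 2.98% an ISRE match. Over the 13030 promoters found for genes tested, these shares were 6.09% and 2.74%. The 23 promoters found for 20 of the 28 interferon-gamma response genes held a GAS match in 8 cases (34.8%) and an ISRE match in 9 (39.1%). The 15 promoters found for 14 of the 17 type I response genes held an ISRE match in 7 (46.7%), a GAS match in 3 and a T-box match in 2 (13.3%). The 11 promoters found for the class I and immunoproteasome genes held a GAS match in 1 (9.09%) and an ISRE match in 1 (9.09%). Among genes at least 2-fold higher in tg/tg, 6.98% of 1175 promoters held an ISRE match, and among genes at least 2-fold lower 1.82% of 1426 did. GAS matches stood at 7.32% and 6.66% in these sets. The T-box element was found in 4.08% and 3.72%, against 3.33% of all promoters and 2.99% of those of genes tested. It was found in 1 of 21 promoters of the T-bet and Th1 list (4.76%). The windows of Cxcl9 and Ubd, which lead the interferon-gamma list, held neither a GAS nor an ISRE match in these letters.

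T cell and Th1 genes rose further from an already raised first step. Of 21 tested T-bet and Th1 genes, 18 rose and 2 fell at the second step (median 1.90); the first step had called 17 higher (median 1.09). The chemokine genes Ccl3 and Ccl4 rose 31.0- and 17.9-fold, and Il12rb1, a subunit of the interleukin-12 receptor that maintains Th1 cells, 8.60-fold. Hlx, a homeobox partner of T-bet, fell 1.32-fold, and Hopx, which Th1 cells share with alveolar type 1 cells, 2.95-fold. Within 1 slide, tg/tg differed from WT by -0.15 for Hlx and -1.58 for Hopx. Il12rb2 and Twist1 were not tested. Of 23 T cell markers 19 rose (median 1.49): the receptor-associated adapter Trat1 (at least 8.90-fold), the co-receptor Cd6 (6.78-fold), the interleukin-7 receptor Il7r (6.00-fold) and the thymocyte selection gene Themis (5.88-fold). The log2 differences ranged from 2.0 to 3.48 over the probes of Trat1 and from 1.08 to 2.76 over those of Cd6. The 3 markers that fell were the lymph node homing receptor Ccr7 (log2 difference -2.11), whose first step was 0.50, and the transcription factors Tcf7 (-0.58) and Lef1 (-0.35). The summed linear level of the 23 markers ran from 12.8 to 13.1 (WT), from 20.3 to 20.4 (tg/wt) and from 70.2 to 72.5 (tg/tg), in units of the array's 75th percentile, and its part in these results was not tested.

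Receptors of activated and chronically stimulated T cells rose in 14 of 15 cases (median 2.33). The costimulatory receptor Tnfrsf9 (4-1BB) rose 20.8-fold, the inhibitory receptor Pdcd1 (PD-1) 8.90-fold and its ligand Cd274 11.3-fold, and Ctla4 was at least 2.71-fold higher. Btla, an inhibitory receptor also common on B cells, fell 3.17-fold after a first step of 0.93, and tg/tg differed from WT by -0.74. Among 16 NK and cytotoxic genes 12 rose and 2 fell (median 1.65), including the granzyme genes Gzmk (15.5-fold) and Gzmb (6.37-fold), the granule gene Nkg7 (5.90-fold) and the Fc receptor Fcgr3 (8.89-fold), which macrophages also express. Gzmk was not well above background in WT, and its first step was at least 5.05-fold. The NK receptors Ncr1 and Klra8 fell 2.92- and 1.40-fold after first steps of 0.56 and 0.55, and the step difference passed the test downward for both (adjusted p = 0.00599 and 0.000178); in tg/tg a single array had Ncr1 well above background. Over the list the step difference was called upward in 7 genes and downward in 7.

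Only 8 of 20 genes of the other helper programmes could be tested, because Il4, Il5, Il13, Il17a, Il17f, Il22, Foxp3 and others were not well above background on 2 of the 4 arrays. Of the 8, 4 rose and 3 fell (median 0.87, 0.61 with bounds). Il10 and Ctla4, among those that rose, were not well above background on either tg/wt array. The list median was -0.54 when genes had to be well above background on all 4 arrays and -0.28 with at least 2 of 6. The cytokine gene Il10 was at least 5.15-fold higher in tg/tg, and the costimulatory receptors Tnfrsf4 (OX40) and Tnfrsf18 (GITR) rose 3.97- and 3.88-fold. Gata3, the master factor of Th2 cells, fell 2.22-fold and the chemokine receptor Ccr6 2.03-fold.

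Antigen presentation genes rose in both classes. Of 13 class II genes 12 rose (median 1.54), with the invariant chain protease Ctss at 7.45-fold, the costimulatory ligands Cd86 and Cd80 at 3.71- and 3.26-fold and the class II transactivator Ciita at 3.61-fold. H2-Ob, the B cell inhibitor of peptide loading, fell 2.71-fold after a first step of 0.73, and tg/tg differed from WT by -0.71. All 12 class I and immunoproteasome genes rose (median 1.34), led by the peptide transporter subunits Tap1 (5.49-fold) and Tap2 (2.98-fold) and the immunoproteasome subunits Psmb8 (4.0-fold) and Psmb9 (2.94-fold).

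Inflammatory cytokines, chemokines and acute-phase genes rose in most cases. Of 14 cytokines 10 rose and 1 fell (median 2.76): Il6 at least 31.2-fold, the interleukin-1 receptor antagonist Il1rn 20.2-fold (log2 differences of 4.34 to 5.01 over its probes), Tnf 18.3-fold and Il1b 14.6-fold, while Il18 fell 1.18-fold. Il1b stood at 0.70 and 0.69 on the WT arrays, -0.21 and -0.30 on the tg/wt arrays and 3.59 and 3.65 on the tg/tg arrays, so tg/wt was below WT and tg/tg above both (tg/tg minus WT 2.92). Of 11 genes of monocyte attraction 10 rose (median 3.35). Ccl2 stood at -1.88 and -1.90 on the WT arrays, -1.45 and -1.49 on the tg/wt arrays and 4.36 and 4.54 on the tg/tg arrays, Ccl7 rose 26.7-fold and Ccl8 20.2-fold; these are the ligands of the monocyte receptor CCR2 and its relatives. The membrane-bound chemokine Cx3cl1 fell 1.55-fold. Of 10 genes of neutrophil attraction 9 rose (median 3.13, 2.21 with bounds), among them Cxcl3 (at least 38.5-fold) and Cxcl2 (at least 9.11-fold), and the platelet gene Ppbp fell 1.66-fold. All 15 acute-phase genes rose (median 2.22), and the first step had called 4 higher and 4 lower. For the acid glycoprotein gene Orm1, a single tg/wt array was well above background, and the fold over tg/wt of 62.7 became 137.8 without tg/wt 1 and 28.5 without tg/wt 2.

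The chemokines of lymphoid tissue and type 2 responses divided, with 8 of 13 higher and 5 lower (median 0.52). Cxcl13, the B cell attractant, rose 22.4-fold, Ccl9 16.6-fold and the membrane-bound Cxcl16 5.23-fold. Ccl17, a Th2 chemoattractant of dendritic cells, fell 7.47-fold after a first step of -0.85. Cxcr5, the receptor of Cxcl13 on B cells, fell 2.27-fold after a first step of 0.86, Cxcl14 1.96-fold and the eosinophil attractant Ccl11 1.29-fold.

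Markers of monocytes and interstitial macrophages rose, and those of resident alveolar macrophages split. All 18 tested monocyte and interstitial macrophage markers were higher in tg/tg (median 3.09, against 0.27 at the first step). Gpnmb, a glycoprotein of lipid-loaded and phagocytic macrophages, rose 18.1-fold, the lipid-sensing receptor Trem2 14.4-fold and the Fc receptors Fcgr4 and Fcgr1 17.2- and 14.3-fold. Of 19 alveolar macrophage markers 12 fell and 5 rose (median -0.62). Fabp1 stood at 1.08 and 1.08 on the WT arrays, 1.34 and 1.30 on the tg/wt arrays and -7.78 and -6.80 on the tg/tg arrays, which puts both tg/tg arrays below the background limit and the other 4 arrays together. Cidec and Krt79 fell as given above, the ribonuclease Ear1 fell 14.3-fold, and Siglecf, the lectin receptor by which alveolar macrophages and eosinophils are recognised, 5.23-fold. The members that rose were the scavenger receptors Marco (5.06-fold) and Olr1 (5.86-fold), the chemokine Ccl6 (4.47-fold), the vacuolar ATPase subunit Atp6v0d2 (2.46-fold) and the integrin Itgax (2.23-fold). Cidec and Fabp4 are also fat markers and Siglecf is also an eosinophil marker.

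Genes tied to surfactant clearance moved in both directions, and which cells these bulk lung values come from was not tested. Of the GM-CSF axis, 8 of 12 members rose and 4 fell (median 0.79). Those that rose include the receptor chains Csf2rb2 (9.49-fold), Csf2ra (3.14-fold) and Csf2rb (2.34-fold, with log2 differences of 1.23 to 2.89 over its probes), and Spi1, the macrophage factor PU.1 (4.74-fold). Pparg, which lies downstream of GM-CSF in alveolar macrophages, stood at 0.65 and 0.57 on the WT arrays, 0.81 and 0.84 on the tg/wt arrays and -0.39 and -0.32 on the tg/tg arrays. Its first step was upward (0.22, adjusted p = 0.0268) and its second downward (-1.18 ± 0.0457, adjusted p = 1.63e-05), with a difference of tg/tg from WT of -0.96. The transcription factor genes Klf4 and Cebpa fell 2.03- and 1.39-fold. Stat5b gave -0.20 on the probe used, with its probes called in both directions (-0.20 to 0.43), and 0.12 as the mean of its probes (adjusted p = 0.116). Its call ended without tg/tg 2 (adjusted p = 0.0818), tg/wt 1 (adjusted p = 0.0615) or tg/wt 2 (adjusted p = 0.105). Of 21 genes of macrophage lipid handling 13 rose and 5 fell (median 0.36): Msr1, Olr1 and the lipid carrier Apoe (3.18-fold) rose, and Cidec, the fatty acid translocase Cd36 (2.11-fold), Fabp4 (1.76-fold), the phospholipid-remodelling enzyme Lpcat1 (1.23-fold) and the HDL receptor Scarb1 (1.19-fold) fell. Of 21 lysosomal and protease genes 20 rose (median 1.72), including Mmp12 as given above, the collagenases Mmp13 (8.82-fold) and Mmp8 (8.17-fold), and Ctss. Mmp8 is also a neutrophil marker.

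Surfactant and alveolar type 2 genes moved in both directions. Of 17 surfactant and alveolar type 2 genes 5 rose, 8 fell and 4 did not pass, among them Sftpc, which was saturated on every array and gives no fold. The median was -0.02, close to that of all genes. Sftpd, which encodes surfactant protein D, stood at 6.86 and 6.88 on the WT arrays, 6.78 and 6.81 on the tg/wt arrays and 7.83 and 7.73 on the tg/tg arrays; tg/tg lay above all other arrays and 1.98-fold above tg/wt. Ctsh, a cathepsin that processes surfactant protein B and is also lysosomal in macrophages, rose 2.86-fold, the desaturase Scd1 1.45-fold and the protease Napsa 1.26-fold. Lgi3 fell 2.48-fold. Sftpa1 gave 0.23 (adjusted p = 0.0293), but its probes were called in both directions (-0.21 to 0.23) and the call ended without tg/tg 1 (adjusted p = 0.116), tg/tg 2 (adjusted p = 0.0588) or tg/wt 1 (adjusted p = 0.119). Of 9 alveolar type 1 markers 7 fell (median -0.67), led by Hopx (2.95-fold), Cyp2b10 (2.76-fold) and the caveolar protein gene Cav1 (2.39-fold), and podoplanin (Pdpn), which some macrophages and stromal cells also make, rose 2.42-fold.

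Most neutrophil markers rose from tg/wt to tg/tg, after falling from WT to tg/wt. Of 17 tested neutrophil markers 16 rose from tg/wt to tg/tg (median 2.96), while 14 were lower in tg/wt than in WT (median -1.45). S100a8, a subunit of calprotectin, stood at 1.40 and 1.45 on the WT arrays, -0.57 and -0.61 on the tg/wt arrays and 2.40 and 2.35 on the tg/tg arrays. Both tg/wt arrays were below both WT arrays, and both tg/tg arrays were above them. Within the slide that holds both groups, tg/tg against WT called 14 members higher and 0 lower, with a median of 0.95, below the median difference from tg/wt. Myeloperoxidase (Mpo) rose 19.3-fold over tg/wt, where a single array had it well above background, and 12.2-fold over WT, and the decoy interleukin-1 receptor Il1r2 19.9- and 6.45-fold. The granule protein gene Ngp was at least 6.73-fold and the cathelicidin gene Camp at least 14.1-fold above tg/wt. The fitted log2 difference of Ngp was 4.04 without tg/wt 1 and 5.28 without tg/wt 2. For S100a9 the difference from tg/wt was 2.11 and that from WT 0.17. The summed linear level of the 17 markers ran from 53.9 to 54.9 (WT), from 15.8 to 16.1 (tg/wt) and from 68.1 to 70.1 (tg/tg). The same shape was seen in Prg2, the eosinophil major basic protein, which stood at -1.34 and -1.33 on the WT arrays, -4.02 and -4.09 on the tg/wt arrays and -0.89 and -0.81 on the tg/tg arrays. Of 10 eosinophil and mast cell markers 4 rose and 2 fell (median 0.23): Epx was at least 1.64-fold higher than in tg/wt, Siglecf fell and Kit, the stem cell factor receptor of mast cells, fell 3.06-fold.

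**Figure D3:**
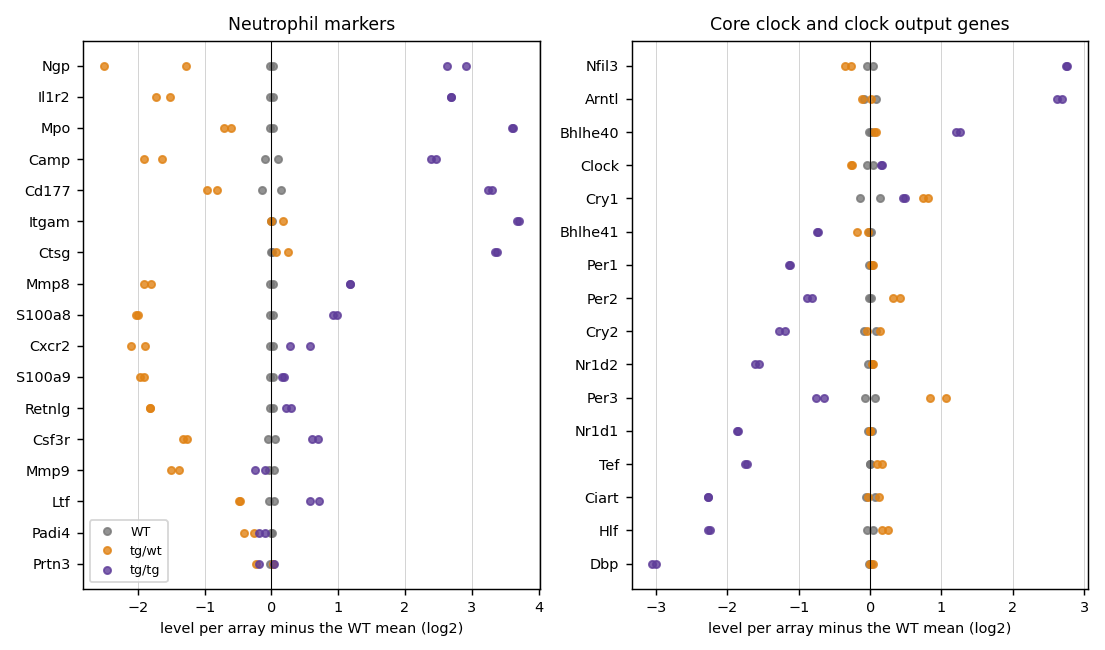
Level per array minus the WT mean (x axis, log2) for the 17 neutrophil markers and 16 of the 17 clock genes tested, with 2 points for each genotype. For most neutrophil markers the tg/wt points lie left of WT and the tg/tg points right of it; for most clock genes the tg/wt points stay near WT and the tg/tg points lie apart, with Arntl and Nfil3 to the right and Dbp, Hlf and Ciart to the left.

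B cell markers split and most dendritic cell markers fell at the second step. Of 19 B cell and plasma cell markers 9 rose and 9 fell (median 0.13, -0.050 without tg/wt 2), after a first step with 14 higher. Against WT, within 1 slide, tg/tg had 9 called higher and 8 lower (median 0.005). The B cell kinase Blk and the complement receptor Cr2 were at least 2.31- and 3.21-fold lower in tg/tg, and Ms4a1 (CD20) fell 3.85-fold after a first step of 0.95. Its log2 difference of tg/tg from WT was -1.0. Jchain, which joins secreted antibodies of plasma cells, rose 4.36-fold, and Cd72 4.31-fold. Of 14 dendritic cell markers 9 fell (median -0.61, -0.30 with bounds). Among them were Itgae (CD103) 6.12-fold, Clec9a, a receptor of cross-presenting dendritic cells, at least 3.32-fold, and Cd209a at least 1.40-fold. Their first step had called 11 of the 14 higher and 2 lower (median 0.45). In tg/tg against WT, within 1 slide, 6 were called higher and 6 lower (median -0.05). The bound for Cd209d was 1.20-fold, and its call ended in 2 alternatives. Batf3, Bst2, Itgax and Clec10a rose (log2 differences 1.48, 1.35, 1.16 and 0.21), though Clec10a did not pass without tg/tg 2 (limma adjusted p = 0.0816) or tg/wt 2 (adjusted p = 0.105). Of these, Bst2 is also interferon-induced and Itgax is also an alveolar macrophage marker.

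Epithelial genes of the airway fell. Of 15 airway secretory and mucous genes 12 fell (median -0.67), including the secreted defence proteins Bpifa1 (7.75-fold) and Bpifb1 (4.16-fold) and the aldehyde dehydrogenase Aldh1a1 (5.56-fold). At the first step 11 of the 15 had already been called lower and 0 higher (median -0.86). The step difference passed the test upward in 6 and downward in 6. Against WT, within 1 slide, tg/tg had 13 called lower and 2 higher (median -1.83). The antibody transporter Pigr rose 4.99-fold, the antimicrobial lectin Reg3g 1.75-fold and lactoferrin (Ltf), also a neutrophil granule protein, 2.19-fold. All 3 had fallen at the first step (-1.0, -1.69 and -0.48). All 11 ciliated cell genes fell (median -1.05), led by Tppp3 (4.37-fold) and the axonemal genes Hydin (2.75-fold), Dnah5 (2.49-fold) and Dnaic1 (2.43-fold). Dnah5 was well above background on a single tg/tg array, and its probes ranged from -1.32 to -0.30 on the log2 scale. The first step had called 9 of them lower (median -0.47), and the step difference passed the test downward in 10.

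Endothelial identity genes fell while adhesion molecules rose. Of 19 endothelial markers 18 fell (median -1.38): Tmem100 6.18-fold, the lymphatic and macrophage marker Lyve1 5.01-fold, the VEGF receptor Kdr 3.42-fold and the angiopoietin receptor Tek 3.40-fold. Sox17, a factor of arterial endothelium, rose 1.28-fold. Their median first step was -0.08, and the step difference passed the test downward in 16 of 19 (35.3% of all genes). Of 5 tested adhesion molecules 4 rose (median 1.09): the chemokine-binding receptor of venules Ackr1 (27.1-fold), P-selectin (Selp, 5.40-fold), Vcam1 (2.13-fold) and Icam1 (1.90-fold). Ackr1 stood at -4.28 and -4.84 on the WT arrays, -4.10 and -4.15 on the tg/wt arrays and 0.59 and 0.68 on the tg/tg arrays, with tg/tg alone at a high level.

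Stromal genes moved in both directions. Of 22 fibroblast and matrix genes 12 rose and 8 fell (median 0.34). The protease inhibitor Timp1 rose 19.8-fold and osteopontin (Spp1), which macrophages also make, 14.2-fold. Besides Inmt, the lung fibroblast factor Tcf21 fell 7.57-fold, the collagen Col14a1 3.69-fold, lumican (Lum) 3.06-fold, the growth factor receptor Pdgfra 1.85-fold, periostin (Postn) 1.76-fold, decorin (Dcn) 1.37-fold and Col6a1 1.29-fold. Of 15 smooth muscle, pericyte and mesothelial markers 13 fell (median -1.08), with the mesothelial genes Upk3b (5.41-fold) and Lrrn4 (3.26-fold) and the contractile genes Cnn1 (5.03-fold) and Myh11 (3.60-fold). Mesothelin (Msln) rose 1.79-fold.

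Most markers of heart muscle, skeletal muscle, fat and red blood cells fell with the second copy. Whether these tissues are part of the lung or were carried along with the sample was not tested. All 11 tested heart muscle markers fell (median -3.09), after all had fallen at the first step (median -1.12). Nppa, the atrial natriuretic peptide gene, stood at 4.05 and 3.98 on the WT arrays, 1.71 and 1.64 on the tg/wt arrays and -2.44 and -2.33 on the tg/tg arrays, a fall of 2 steps without overlap of the genotypes. Mb fell as given above, and the atrial genes Myl7 and Sln fell 11.7- and 11.2-fold. The summed linear level of the heart list ran from 234.7 to 236.5 (WT), from 114.4 to 115.7 (tg/wt) and from 12.8 to 13.2 (tg/tg). Of 8 skeletal muscle markers 7 fell (median -1.50), among them creatine kinase (Ckm, at least 13.1-fold), Myh4 (6.70-fold), Tnnt3 (4.64-fold) and Actn3 (at least 1.69-fold); Myh1, Myh2 and Pvalb were not well above background on 2 of the 4 tg/tg and tg/wt arrays. The sum was 4.50 to 4.66, 3.18 to 3.19 and 1.01 to 1.06. Of 10 fat markers 9 fell (median -4.27, -3.43 with bounds), including adiponectin (Adipoq, 38.6-fold, and well above background on just 1 tg/tg array), Slc7a10 as given above and Pck1 (at least 11-fold), while the hormone-sensitive lipase gene Lipe rose 1.86-fold. Their sum ran from 38.6 to 39.6 (WT), from 26.2 to 26.8 (tg/wt) and from 4.95 to 4.98 (tg/tg). Of 5 erythroid markers 4 fell (median -0.45), from -0.59 for the globin gene Hba-a1 to -0.25 for the band 3 gene Slc4a1, with sums of 366.3 to 370.6, 295.3 to 316.8 and 201.1 to 205.0. The part of these tissues in the falls of Cidec, Cfd, Mb, Car3, Slc7a10 and other genes they share was not tested.

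Clock genes moved in opposed groups at the second step. The circadian clock runs on the activators Arntl (BMAL1) and Clock, which switch on Per, Cry, Nr1d and the output factors Dbp, Tef and Hlf through E-boxes, while Nfil3 opposes the output factors at D-boxes. Of 17 tested members 13 fell and 4 rose (median -1.21). Dbp stood at 6.42 and 6.39 on the WT arrays, 6.45 and 6.41 on the tg/wt arrays and 3.35 and 3.40 on the tg/tg arrays. The WT and tg/wt arrays lay together (first step 0.02, adjusted p = 0.703), and both tg/tg arrays were below them, 8.29-fold under tg/wt. Hlf fell 5.52-fold, Ciart, a repressor within the clock, 4.98-fold and Per3 3.14-fold. Arntl stood at -3.38 and -3.21 on the WT arrays, -3.41 and -3.28 on the tg/wt arrays and -0.61 and -0.68 on the tg/tg arrays and rose 6.51-fold over tg/wt, Nfil3 rose 8.36-fold, Bhlhe40, a repressor that is also induced in activated T cells, 2.24-fold and Clock 1.35-fold (log2 differences of 0.36 to 1.47 over its probes). The step difference passed the test in all 17, with 13 downward and 4 upward, and the median first step was 0.04. The labels used here give no time of day of sampling, so sampling time and genotype cannot be told apart for these genes.

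Promoters of 2 clock genes that fell are shown with the elements named above, again because they hold matches. Ciart (chr3:95882229-95882478, minus strand) has 3 E-boxes, and Per3 (chr4:151044666-151044915, minus strand) has 2 D-boxes.
Ciart: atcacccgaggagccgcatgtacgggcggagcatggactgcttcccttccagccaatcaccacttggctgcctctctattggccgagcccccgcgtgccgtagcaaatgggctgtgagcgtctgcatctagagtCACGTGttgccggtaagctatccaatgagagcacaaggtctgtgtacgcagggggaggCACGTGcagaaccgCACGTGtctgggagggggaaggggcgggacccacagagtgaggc
Per3: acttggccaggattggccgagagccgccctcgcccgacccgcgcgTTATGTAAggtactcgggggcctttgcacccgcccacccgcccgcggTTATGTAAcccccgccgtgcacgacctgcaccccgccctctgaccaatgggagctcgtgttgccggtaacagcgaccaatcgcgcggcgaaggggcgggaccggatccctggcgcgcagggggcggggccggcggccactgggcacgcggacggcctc
Of 19 promoters found for 14 of the 17 clock genes, 6 (31.6%) held an E-box and 1 (5.26%) a D-box. Over all promoters these shares were 6.02% and 0.819%, and over those of genes tested 7.74% and 0.568%. Among genes at least 2-fold lower, 1.54% held a D-box and 5.54% an E-box, and among those at least 2-fold higher 0.681% and 6.47% did. An E-box was also found in 3 of 11 promoters (27.3%) of the class I and immunoproteasome list.

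Detoxification enzymes fell throughout. All 19 cytochrome P450 and detoxification genes passed the test downward (42.3% of all genes did), 16 of them at least 2-fold, with a median of -1.87. Cyp1a1, the main target of the aryl hydrocarbon receptor, and Cyp2e1 were at least 15.8- and 15.9-fold lower, Cyp2a5 fell 9.15-fold and the glutathione transferase Gsta3 6.42-fold. The first step called 9 lower, with a median of -0.19, and the step difference was below 0 and passed the test in all 19.

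**Figure D4:**
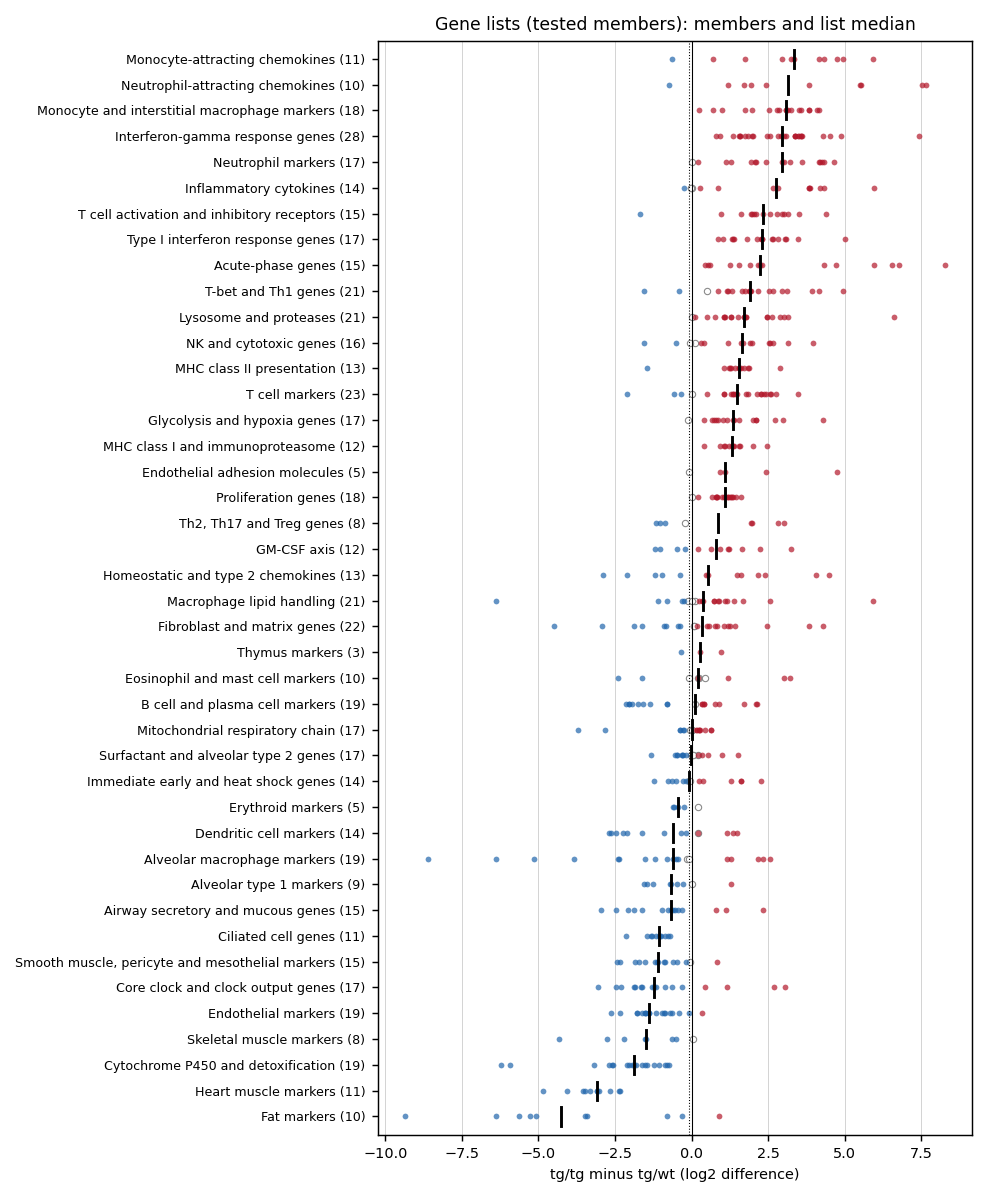
Difference between tg/tg and tg/wt (x axis, log2) of every tested member of each gene list (y axis, with the number tested); red and blue points passed the limma test upward and downward, open points did not, black bars are list medians and the dotted line is the median of all genes (-0.07). Monocyte-attracting chemokines lead with a median of 3.35, and the lists with the lowest medians are fat (-4.27), heart muscle (-3.09) and detoxification genes (-1.87).

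Set side by side over the 3 genotypes, genes followed several shapes. The genes named for each shape were ranked among those well above background on all 6 arrays. Of these, the 6 genes with the steepest rise at both steps were Cxcl9, Ubd, Cxcl10, Ifng, the T cell adapter Sh2d1a and Ccl4. Gzmk, with fitted steps of 4.65 and 3.95, was not well above background in WT and so was not ranked. Sh2d1a stood at -4.11 and -3.90 on the WT arrays, -1.82 and -1.84 on the tg/wt arrays and 0.68 and 0.75 on the tg/tg arrays, with steps of 2.18 and 2.55 whose difference did not pass the test (adjusted p = 0.0639). The 6 with the steepest fall at both steps were mostly of heart and stratified epithelium: Nppa, the basal cell keratin Krt15, the mitochondrial creatine kinase Ckmt2, the sarcomere gene Mybpc3, the epithelial calmodulin-like gene Calml3 and Hrc, a calcium-binding protein of the sarcoplasmic reticulum. The first and second steps were -1.59 and -2.09 for Krt15, -1.47 and -3.67 for Ckmt2, -1.54 and -1.45 for Mybpc3, and -1.43 and -2.02 for Calml3.

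Genes lower in tg/wt than in WT and then higher in tg/tg were led by Prg2, Retnla, S100a8, Cxcr2, Stfa2l1 and S100a9. Retnla, a secreted protein of alternatively activated macrophages and airway cells, stood at 4.79 and 4.86 on the WT arrays, 2.65 and 2.79 on the tg/wt arrays and 7.02 and 6.98 on the tg/tg arrays. Its difference between tg/tg and WT was 2.18, smaller than the 4.28 between tg/tg and tg/wt. Cxcr2, the neutrophil chemokine receptor, stood at -1.73 and -1.67 on the WT arrays, -3.60 and -3.81 on the tg/wt arrays and -1.12 and -1.43 on the tg/tg arrays, and Stfa2l1, a neutrophil cystatin, at -2.71 and -2.75 on the WT arrays, -4.62 and -4.85 on the tg/wt arrays and -0.42 and -0.57 on the tg/tg arrays. In all 6 genes both tg/wt arrays were the lowest, which follows from how they were picked.

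Genes higher in tg/wt than in both other genotypes were led by Kcna7, Xlr3c, Acsf2, Galnt5, Olfr430 and Krtap31-1. Xlr3c stood at -1.47 and -1.40 on the WT arrays, 0.30 and 0.38 on the tg/wt arrays and -1.91 and -1.94 on the tg/tg arrays. The tg/wt arrays stood above all others, and tg/tg differed from WT by -0.49. Kcna7, a potassium channel, stood at -2.58 and -2.59 on the WT arrays, -0.85 and -0.67 on the tg/wt arrays and -2.89 and -2.79 on the tg/tg arrays, and tg/tg differed from WT by -0.26. For Acsf2, a fatty acid-activating enzyme, the difference of tg/tg from WT was -0.12, for the glycosyltransferase Galnt5 -0.96, for the olfactory receptor Olfr430 -1.10 and for the keratin-associated Krtap31-1 0.07. Because the tg/wt arrays are the only ones on their slide, slide and genotype cannot be told apart for this shape.

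Genes with a first step under 0.2 that did not pass the test and a step difference that did were led by Arg1, Msr1, Clec4e, Oas3, Pla2g7 and Inhba among rises and by Cidec, Bex2, Gria1, Inmt, Pcolce2 and Pcdha6 among falls. Pla2g7, which hydrolyses oxidised phospholipids, stood at -1.77 and -1.60 on the WT arrays, -1.92 and -1.82 on the tg/wt arrays and 2.95 and 2.95 on the tg/tg arrays. Its step difference was 5.01 (adjusted p = 1.86e-05). Inhba, the activin A subunit, rose 27.0-fold and Pla2g7 28.3-fold. Pcolce2 stood at 5.23 and 5.25 on the WT arrays, 5.35 and 5.36 on the tg/wt arrays and 0.99 and 1.15 on the tg/tg arrays, with a step difference of -4.40 (adjusted p = 1.61e-05). Gria1 stood at 1.32 and 1.32 on the WT arrays, 1.52 and 1.42 on the tg/wt arrays and -3.44 and -3.57 on the tg/tg arrays and Bex2 at 2.76 and 2.71 on the WT arrays, 2.71 and 2.73 on the tg/wt arrays and -3.66 and -3.61 on the tg/tg arrays; in both the WT and tg/wt arrays lay together and the tg/tg arrays apart.

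**Figure D5:**
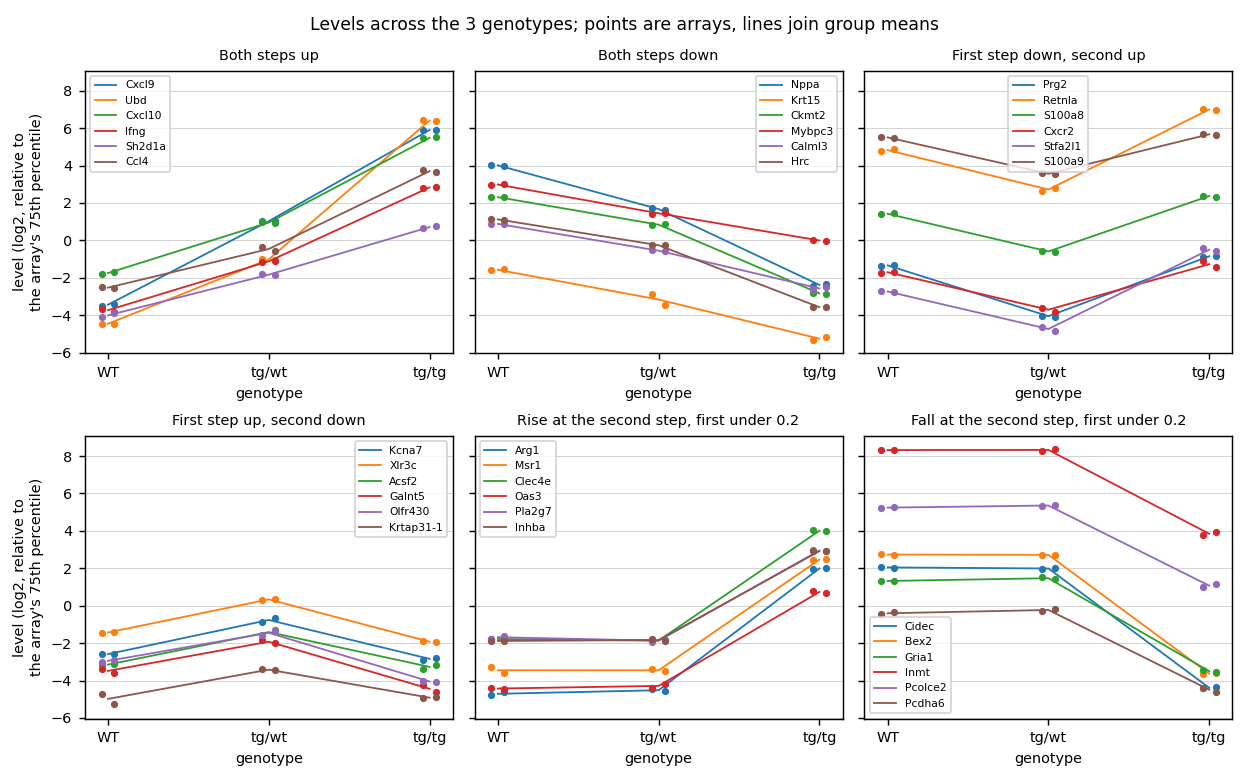
Levels (y axis, log2 relative to the array's 75th percentile) in WT, tg/wt and tg/tg of the 6 leading genes of each shape. The genes were chosen by the sizes of both steps among those well above background on all 6 arrays. Points are arrays and lines join group means. Rises and falls at the second step after a small first step are seen in the last 2 panels, and the tg/wt arrays form the low or the high point in the panels of opposed steps.

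Sex-linked genes were read per array. Eif2s3y stood at 1.54 and 1.45 on the WT arrays, 0.87 and 0.78 on the tg/wt arrays and 1.79 and 1.93 on the tg/tg arrays and Ddx3y at 0.41 and 0.47 on the WT arrays, 0.02 and 0.06 on the tg/wt arrays and 0.34 and 0.29 on the tg/tg arrays, and both, with Kdm5d, were well above background on all 6 arrays, while Uty and Xist were on none. Eif2s3y was 2.05-fold above tg/wt in tg/tg and Ddx3y 1.21-fold, and the tg/wt arrays were the lowest for both genes.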

How the data were processed

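Lung RNA (0.8 ug per the labels) was measured on 6 single-colour Agilent arrays. The authors deposited scanner files, whose intensity values are background-subtracted, detrended, linear and unscaled per the file headers (Agilent Feature Extraction 9.5.3.1; the submitters' processing notes name 9.1). The deposited series values equal the background-subtracted intensity (relative tolerance 1e-04) and served as an alternative. The level was log2 of the processed intensity minus the array's 75th percentile.

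Of 41174 non-control probes, 22951 matched 16358 RefSeq symbols by accession. Probes were kept if 2 or more of the 4 tg/tg and tg/wt arrays had them well above background, outlier spots were left out, and each gene took its brightest probe (12774 genes). Limma 3.58.1 (R 4.3.3, data.table, version 1.17.8) fitted group means over all 6 arrays (3 residual and 1.93 prior degrees of freedom), with Benjamini-Hochberg adjustment at 0.05. A fold is "at least" where neither array of the lower group had the gene well above background. It sets the brighter mean against, per array, the higher of the probe's signal and the dimmest signal that any probe well above background had. Of 200 genes given known changes in simulated data on the comparison of tg/tg with tg/wt, 190 were recovered. Promoter motifs and figures used Python 3.11.15, pandas 2.3.3 and matplotlib 3.10.9.

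Groups came from the genotype labels. The samples compared, the gene lists and the tests were chosen with earlier results of these data known. Named were Tbx21, the 12 largest rises and falls measured on all 4 arrays, the 5 largest bounds in each direction, 6 genes per shape across genotypes, and per list up to 4 members past the threshold plus those against its direction. Irf1, Igtp, Ciart, Per3 and Ms4a1 were added after their values were seen, as were members listed as not tested. Some genes are not reported here. Alternatives were quantile or median scaling, normexp, the series values, other filters, a floor, other probe rules, a variance trend, treat, the replicate block and leaving out each array. The normexp alternative used the median signal with capped local backgrounds, because the files hold no mean signal. A slide block was not run, since slide and tg/wt coincide.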

Additional observations from a re-analysis of the deposited data

Results flagged for a closer look

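Listed here are 12 genes selected because their 2 steps ran in opposite directions and each passed the test. That the test of the step difference (second minus first, log2) also passed follows from this selection. The step differences of genes low in tg/wt were 6.39 for Retnla, 6.24 for Stfa2l1, 5.92 for Prg2, 4.98 for S100a8, 4.43 for Cxcr2 and 4.05 for S100a9. Those of genes high in tg/wt were -4.10 for Olfr430, -4.08 for Galnt5, -4.03 for Xlr3c, -3.90 for Kcna7, -3.60 for Acsf2 and -3.06 for Krtap31-1. Their adjusted p-values from limma lay between 1.08e-05 and 0.000783. The genes were picked as the leading ones of their shape among genes well above background on all 6 arrays, so these p-values describe selected genes. Other genes share the shape, such as Clec4d (steps of -1.15 and 5.77). Both steps contain the tg/wt arrays, the only ones on their slide, so slide and genotype cannot be told apart here. The differences of tg/tg from WT, within 1 slide, were 2.18, 2.24, 0.49, 0.95, 0.43 and 0.17 for the genes low in tg/wt, in the order given.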

How the results depend on the processing

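The count of genes called ranged from 8737 to 9274 when each array was left out in turn, and that of genes at least 2-fold higher from 1242 to 1261. Tested with treat against a log2 difference of 0.5, 4039 genes were called, 1763 higher and 2276 lower, with 1373 step differences upward and 1848 downward. That setting also ended 30 of the 254 calls of named genes. Normexp left 975 genes at least 2-fold higher and 898 lower, against 1242 and 1456 in the main fit, so the larger count changed sides. Of named genes, Sftpa1 turned to -0.027 with quantile normalization (adjusted p = 0.571) and Stat5b to 0.12 with the mean of its probes. List medians turned for the respiratory chain with quantile normalization (-0.13) and with every probe on its own (-0.045). They also turned for B and plasma cells with no filter on dim probes (-0.33) and without tg/wt 2 (-0.050, against 0.31 without tg/wt 1), for the Th2, Th17 and Treg list with genes well above background on all 4 arrays (-0.54) or on 2 of 6 (-0.28), and for the thymus list with every probe on its own (-0.013). Medians near 0 also changed sign, by less than the spread between replicates, for the respiratory chain with normexp (-0.011) and with the mean of a gene's probes (-0.023), and for surfactant and alveolar type 2 genes with median scaling (0.015) and without tg/wt 1 (0.020). The cause was not tested. Calls lost without 1 array were those of Sftpa1, Stat5b, Clec10a and Dntt, and of Actn3 with normexp and Cd209d with the series values or a floor. Replicate numbers did not pair the samples (correlations of same-numbered deviations 0.10, -0.00 and -0.04 for the 3 pairs of genotypes). With the replicate block 9392 genes were called and Sftpa1 was lost (adjusted p = 0.0547). Having 2 arrays a group, and dim signal in 1 group for 454 genes, limit the precision.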

Other observations

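Energy metabolism differed between tg/tg and tg/wt in its sugar branch. Of 17 tested glycolysis and hypoxia genes 16 rose (median 1.34 against -0.07 for all genes), led by Hk3, the hexokinase of myeloid cells (19.6-fold), the oxygen sensor Egln3 (8.01-fold), the lactate exporter Slc16a3 (6.60-fold) and the pyruvate kinase Pkm (4.29-fold). The first step had called 2 of them higher and 4 lower. Markers of monocytes and interstitial macrophages, given above, also rose, and their part in these rises was not tested. Respiratory chain genes divided, with 8 of 17 higher and 6 lower. Cox8b and Cox7a1, subunit forms of muscle and brown fat, fell 12.9- and 7.07-fold, while Cox5a rose 1.57-fold; cytochrome c (Cycs) gave 0.63, while its probes ranged from -0.17 to 0.63. Ndufs1, Ndufa4, Ndufv1 and Sdha gave -0.37, -0.36, -0.28 and -0.24. Levels of heart and fat markers, given above, fell together with those of Cox8b and Cox7a1, and their part in these falls was not tested.

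Proliferation genes rose in 17 of 18 cases (median 1.09), with the mitotic genes Ccnb1 (3.09-fold), Cdk1 (2.74-fold), Aurka (2.56-fold) and Top2a (2.51-fold), after a first step with 15 higher (median 0.57). Immediate early and heat shock genes divided, with 6 of 14 higher and 6 lower (33.1% and 42.3% of all genes were). Their median was -0.07, the same as that of all genes. The transcription factor genes Egr2, Junb, Fos and Atf3 rose 4.79-, 3.04-, 3.04- and 2.43-fold, and the lowest member of the list gave a log2 difference of -1.21. Of the thymus list only 3 members could be tested: Cd1d1 (0.96), Dntt (0.27, not called without tg/wt 2, limma adjusted p = 0.0555) and Ccl25 (-0.33), while Rag1, Rag2, Ptcra and Foxn1 were not well above background on 2 of the 4 arrays.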
